A study of Mus musculus with 8 samples.

Results

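Mitochondria keep a ribosome of their own, which makes the few inner-membrane proteins encoded in mitochondrial DNA. Its rRNAs are transcribed inside the organelle, whereas its proteins are made from nuclear genes in the cytosol and imported, so a working particle needs output from both genomes. The genes described here are those nuclear genes, taken as the protein-coding rows of the count table whose mouse symbol is Mrpl (large subunit) or Mrps (small subunit) followed by a number, without names ending in -ps. They came to 78 of the 75078 rows, 49 with Mrpl and 29 with Mrps names. In the common naming scheme for ribosomal proteins, 44 of them share the name of a bacterial protein and are called bacterial counterparts here, and 31 have a name of their own for mitochondria. The 3 others are Mrps30 and Mrps18a, which despite their names sit in the large subunit, and Mrps36, since assigned to the oxoglutarate dehydrogenase complex. All 78 passed the filter on low counts, with 123 to 3695 estimated counts per library.

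RNA was sequenced from aTC1-6 cells, a mouse line with alpha cell features that was cloned from an islet tumour driven by large T antigen. A group of 4 libraries, numbered 45 to 48, came from cells transfected with a plasmid that overexpresses Yy1, and a group of 4, numbered 31 to 34, from cells given the empty (stuffer) plasmid. Transfection took place 24 h after seeding in DMEM labelled 11 mM in both groups, and the labels used here give neither the time of harvest nor the share of cells that took up plasmid. Nothing in the labels says that the samples were separate cultures, so p-values measure the spread between these libraries, which may be technical, and a difference in handling between the groups cannot be told apart from the plasmid.

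Yy1 is a zinc finger protein whose binding site often lies at or just after the start of housekeeping genes. The overexpressed gene stood at 5897, 4814, 5118 and 5103 CPM (counts relative to the TMM-scaled size of the library) in libraries 45 to 48 of the Yy1 plasmid, against 177, 168, 175 and 181 CPM in libraries 31 to 34 of the empty plasmid. This was a 29.9-fold difference (log2 fold change 4.90, SE 0.0619; edgeR quasi-likelihood test, adjusted p = 7.38e-24), and the two-sided exact permutation test gave p = 0.0286, the smallest that 4 against 4 libraries allow. The alpha cell marker Gcg averaged 21291 CPM with the Yy1 plasmid and 21228 CPM with the empty plasmid, all 10 alpha cell markers passed the filter, and Ins1, Ins2, Ppy and Prss2 had no count in any library. Summed levels of 8 stromal, vessel and blood markers ran from 2.07 to 3.38 CPM with the Yy1 plasmid and from 1.47 to 3.28 CPM with the empty plasmid. Beta cell markers summed to 49.05 to 58.92 CPM with the Yy1 plasmid and 53.00 to 57.85 CPM with the empty plasmid. Most of this was Nkx6-1, with means of 51.0 CPM with the Yy1 plasmid and 54.8 CPM with the empty plasmid. Of the 7 beta cell markers 3 passed the filter. The others of these were Mafa (0.529 and 0.275 CPM) and Iapp (0.419 and 0.502 CPM, Yy1 plasmid first). Exocrine and duct markers summed to 11.04 to 12.12 CPM with the Yy1 plasmid and 9.90 to 11.06 CPM with the empty plasmid, mostly from Cela1 and Sox9. Delta and PP cell markers were at 0.721 CPM or less with the Yy1 plasmid and 0.489 CPM or less with the empty plasmid. Totals per library ran from 29680177 to 33347445 counts with the Yy1 plasmid and from 20679804 to 30570601 counts with the empty plasmid.

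Matches to the YY1 site near the start were counted in the sequence of these genes. The RefSeq promoter table (build GRCm38.p6, an older build than the GRCm39 named for the counts) held windows from 250 bases before to 50 bases after the start for 69 of the 78 genes, 75 windows in all. On either strand, AANATGG lay in 23 of these 75 windows (30.7%), against 14.8% of 12510 windows of other tested protein-coding genes and 16.1% of all 32851 windows. The longer form ANATGGCG, which overlaps the first by 6 bases, lay in 11 windows (14.7%), against 6.62% of windows of other tested protein-coding genes and 3.65% of all windows. The difference in these shares was not tested, and a match is a run of letters, not a measured binding site. The 11 stretches with the longer form are printed because they are the closest matches to the site of the overexpressed factor. Each is given as the gene's strand in the direction 5′ to 3′, with the matched letters in capitals.
Mrpl27 (chr11:94653789-94653818, plus strand): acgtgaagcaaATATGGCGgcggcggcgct
Mrpl35 (chr6:71823742-71823771, minus strand): ggcaggctgcaAGATGGCGgcttccatctt
Mrpl36 (chr13:73330967-73330996, plus strand): acgtgaccttaCGCCATCTttcttcctggc
Mrpl37 (chr4:107066821-107066850, minus strand): tgcacgggcaaAGATGGCGgcgtccaggta
Mrpl42 (chr10:95501903-95501932, minus strand): agattgaagcaAGATGGCGagcgcgcggtg
Mrpl58 (chr11:115403762-115403791, plus strand): ctgggaggtgaACATGGCGaccgcctgggg
Mrps11 (chr7:78783012-78783041, plus strand): cctacgggcgcCGCCATCTttctgtcttcc
Mrps18a (chr17:46111005-46111034, plus strand): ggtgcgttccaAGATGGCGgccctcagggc
Mrps24 (chr11:5707652-5707681, minus strand): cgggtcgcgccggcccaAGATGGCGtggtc
Mrps27 (chr13:99344790-99344819, plus strand): ggtgcgctccaAGATGGCGgctcccatggt
Mrps30 (chr13:118387218-118387247, minus strand): gcggcgggcgaAAATGGCGgcggccaggta

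In 9 of these 11 the match reads along the gene's strand and begins 10 to 38 bases into the transcript. In 7 of the 9 the ATG inside the match is an annotated start codon of the gene, so the letters of the site and of the first codons coincide. In Mrpl36 and Mrps11 the match lies before the start and on the other strand. With the shorter form, 11 of the 23 genes had a match at an annotated start codon. The other motifs searched, on either strand as well, were the ETS core CCGGAAG, in 34.7% of the windows of mitoribosomal protein genes against 17.2% of windows of other tested protein-coding genes, and the NRF1 motif (GCGCA, any base, then GCGC), in 17.3% against 9.94%. ETS-family GABP and NRF1 are textbook regulators of nuclear genes for mitochondria. Over all 32851 windows the shares were 8.86% for ETS and 4.60% for NRF1, and 21 of the 69 genes had none of the 4 motifs.

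**Figure D1:**
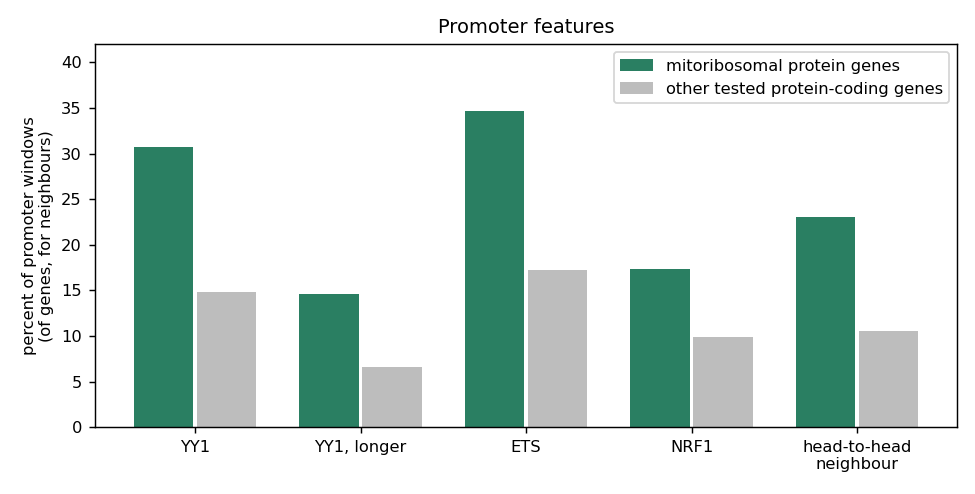
Percent of promoter windows holding each motif, and percent of genes with a coding gene starting head to head within 1000 bases, for mitoribosomal protein genes (green) and other tested protein-coding genes (grey). All 5 green bars are higher, for example 30.7% against 14.8% for the YY1 form AANATGG, and no test was made.

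In cells with the Yy1 plasmid no mitoribosomal protein gene passed the test. None of the 78 was called higher or lower at an adjusted p under 0.05 by edgeR, DESeq2 or limma-voom. Over all 15916 genes tested edgeR called 82, a share of 0.515%, and among protein-coding genes the share was 0.0962%, so that a count of 0 among 78 genes is near the background. An unadjusted p under 0.05 was found for 1 of the 78 genes (1.28%) and for 5.42% of all genes. Because the RNA came from whole cultures, fewer cells with a transcript and less of it per cell cannot be told apart.

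The summed level of the 78 genes was 3507, 3382, 3466 and 3401 CPM in libraries 45 to 48 of the Yy1 plasmid, and 3495, 3365, 3543 and 3336 CPM in libraries 31 to 34 of the empty plasmid. The groups overlapped throughout, and the lowest and the highest library both carried the empty plasmid. The means were 3439 ± 58.0 CPM with the Yy1 plasmid and 3435 ± 99.8 CPM with the empty plasmid (SD, n = 4 each), or 0.343% of all counts in both. Large-subunit names summed to 2194 ± 31.8 CPM with the Yy1 plasmid and 2187 ± 62.7 CPM with the empty plasmid, and small-subunit names to 1245 ± 29.3 CPM with the Yy1 plasmid and 1248 ± 38.9 CPM with the empty plasmid (SD, n = 4 each). The ratio of Mrpl to Mrps sums was 1.76 ± 0.0261 with the Yy1 plasmid and 1.75 ± 0.0202 with the empty plasmid. It goes by name alone, with Mrps30, Mrps18a and Mrps36 in the Mrps sum, and does not measure the balance between the subunits.

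**Figure D2:**
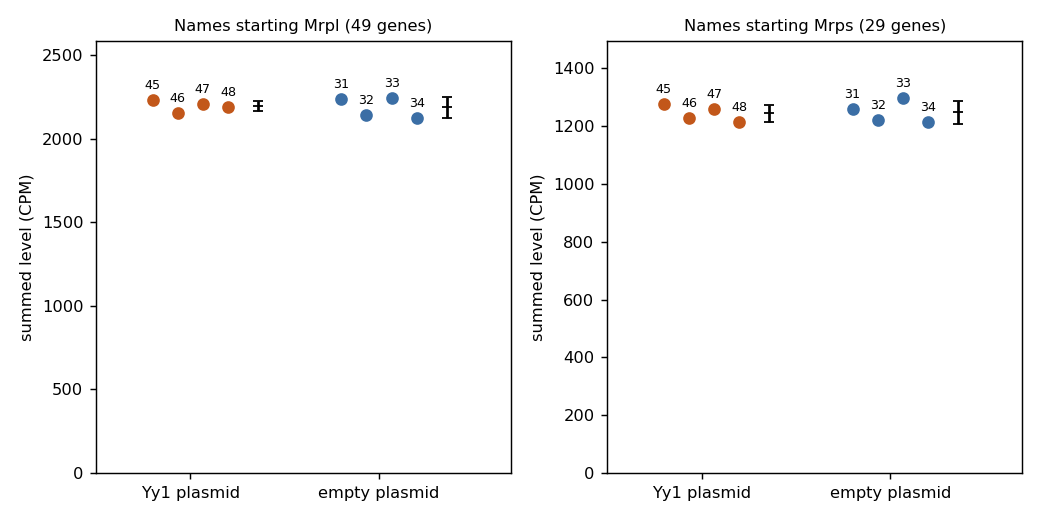
Summed level in CPM of the 49 Mrpl names (left) and the 29 Mrps names (right) in each library, with library numbers above the points and the mean and SD (n = 4) beside them. The libraries of the groups overlap, from 2154 to 2229 CPM with the Yy1 plasmid and 2123 to 2244 CPM with the empty plasmid for Mrpl names.

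Within each group, libraries differed in the level of many of these genes at once. The median deviation of the 78 genes from their own mean over the 8 libraries, on the log2 CPM scale, was 0.033, -0.024, 0.010 and -0.016 in libraries 45 to 48 of the Yy1 plasmid, and 0.025, -0.031, 0.050 and -0.037 in libraries 31 to 34 of the empty plasmid. Libraries 45, 47, 31 and 33 were thus the higher ones. In library 33, the smallest by total counts, 57 of the 78 genes stood above their own mean, and in library 34 only 22 did.

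The fitted log2 fold changes of single genes ran from -0.20 to 0.16 with a median of 0.0036, beside a median of -0.0025 over all tested genes, and 41 were positive and 37 negative. An absolute log2 fold change under 0.1 was found for 93.6% of the 78, against 88.5% of the 7564 other protein-coding genes whose average level lay in the range of these genes. The median was 0.0088 for Mrpl names and 0.00073 for Mrps names, 0.0055 for genes with a bacterial counterpart and -0.0057 for those with a mitochondrial name of their own. The 95% interval of the log2 fold change lay within a 1.2-fold change in either direction for 74 of the 78 genes and within 1.5-fold for 77. The 4 genes whose interval reached past 1.2-fold were Mrpl14, Mrps34, Mrps18c and Mrpl23, and the interval of Mrpl23 alone reached past 1.5-fold.

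**Figure D3:**
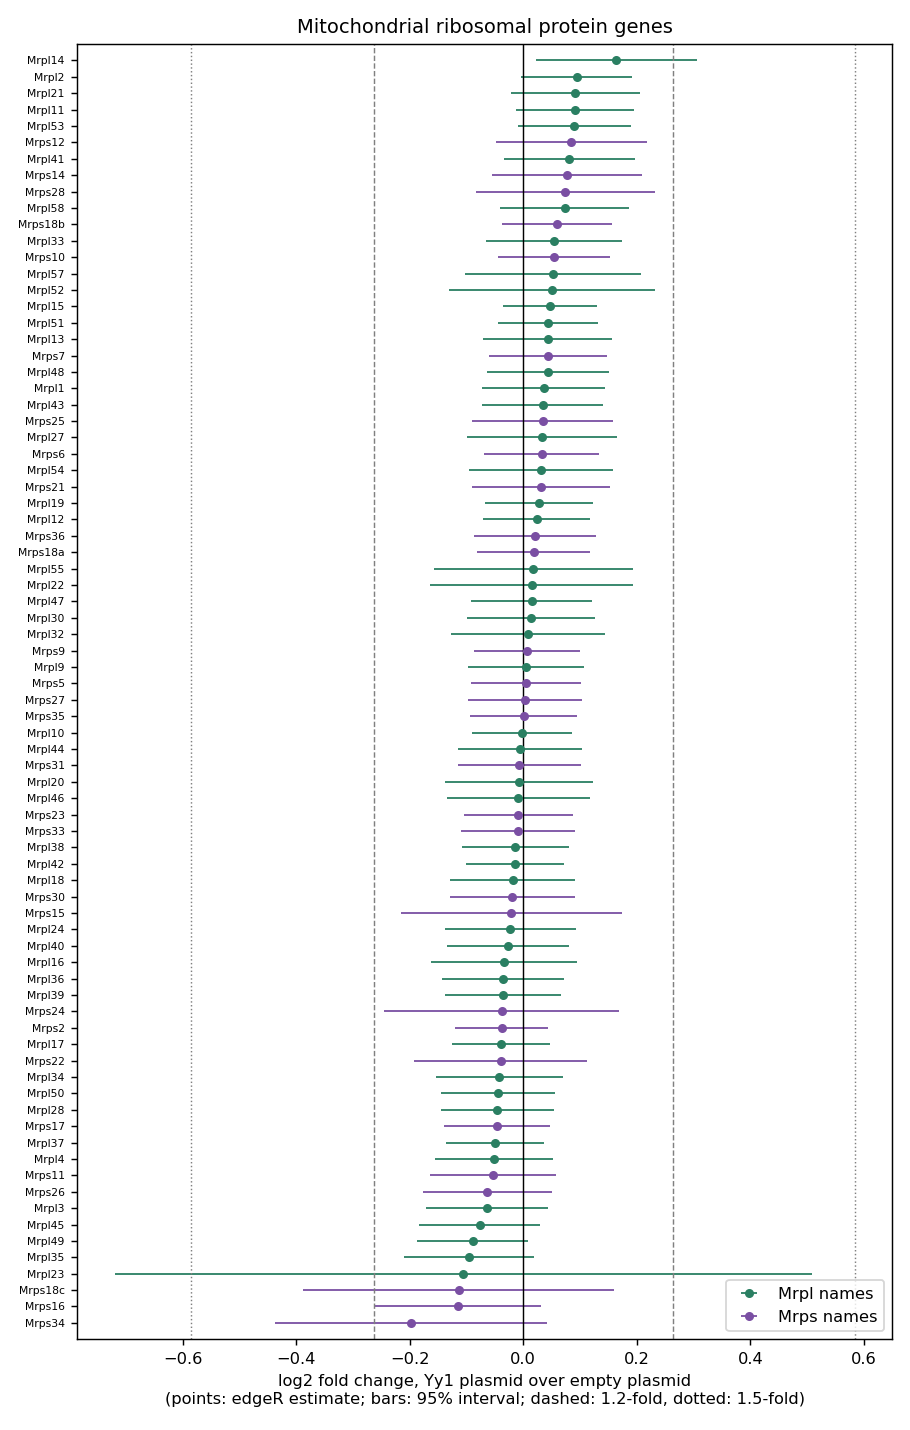
Fitted log2 fold change of each of the 78 genes, Yy1 plasmid over empty plasmid, with its 95% interval, in order of size, Mrpl names in green and Mrps names in purple. The estimates run from -0.20 for Mrps34 to 0.16 for Mrpl14, and 77 of the 78 intervals span 0.

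Mrpl14, in the large subunit, had the smallest p of the 78. It is the counterpart of a bacterial protein at the face where the subunits join, and it had 28.4, 22.8, 25.6 and 23.5 CPM in libraries 45 to 48 of the Yy1 plasmid, against 22.9, 23.3, 20.6 and 22.5 CPM in libraries 31 to 34 of the empty plasmid. The groups overlapped, with library 45 well above the rest. Its log2 fold change was 0.16 (SE 0.0685, 95% interval 0.022 to 0.31; unadjusted p = 0.0259, edgeR adjusted p = 0.786). With single libraries left out it ran from 0.097, without library 45, to 0.20. Mrpl2, whose bacterial counterpart lies near the peptidyl transferase centre, had 37.02, 38.04, 38.73 and 37.32 CPM with the Yy1 plasmid and 35.87, 35.01, 36.13 and 34.65 CPM with the empty plasmid. These libraries did not overlap, and the log2 fold change was 0.094 (SE 0.0474; edgeR adjusted p = 0.911).

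The only other gene without overlap was Mrpl37, a protein gained by the mitochondrial ribosome and named here after its values were seen. It had 57.8, 59.7, 55.8 and 58.7 CPM with the Yy1 plasmid and 60.0, 59.9, 59.9 and 60.6 CPM with the empty plasmid, and the fitted log2 difference was -0.050 (SE 0.0417; edgeR adjusted p = 0.980). Genes without overlap were thus 2 of 78 (2.56%), beside 3.95% of all tested genes. In the higher direction this was 1 of 78, beside 2.37% of all tested genes, and in the lower direction 1 of 78, beside 1.57%. With RLE, upper-quartile or library size scaling the libraries of Mrpl37 overlapped.

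The stalk of the large subunit recruits translation factors. Mrpl12, its flexible protein, had 113, 107, 108 and 116 CPM in libraries 45 to 48 of the Yy1 plasmid, against 112, 109, 114 and 100 CPM in libraries 31 to 34 of the empty plasmid. The values overlapped almost fully, with a log2 fold change of 0.023 (SE 0.0452). Mrpl11, at the base of the stalk, averaged 43.8 ± 1.68 CPM with the Yy1 plasmid and 41.1 ± 2.14 CPM with the empty plasmid (SD, n = 4 each; log2 fold change 0.092, SE 0.0501, edgeR adjusted p = 0.939).

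Mrpl21, which has a bacterial counterpart, and Mrpl53, which has none, had log2 fold changes of 0.092 and 0.090, and Mrpl49, another mitochondrial addition, had -0.089. Mrpl44, an RNase-like protein, and Mrpl36, a small protein with a bacterial counterpart, had -0.0057 and -0.036. Mrpl58, a peptidyl-tRNA hydrolase that became part of the ribosome and frees stalled particles, averaged 34.5 ± 1.28 CPM with the Yy1 plasmid and 32.9 ± 2.12 CPM with the empty plasmid (SD, n = 4 each; log2 fold change 0.073, SE 0.0547). For Mrps30 and Mrps18a, the large-subunit proteins with small-subunit names, the log2 fold changes were -0.019 and 0.018. None of these genes passed the test, the smallest adjusted p among them being 0.929 for Mrpl49.

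Among the small-subunit names the lowest value belonged to Mrps34, a protein gained by mitochondria and needed for a stable small subunit. It had 27.64, 26.77, 22.69 and 21.01 CPM in libraries 45 to 48 of the Yy1 plasmid, against 26.42, 26.24, 34.02 and 26.38 CPM in libraries 31 to 34 of the empty plasmid. Library 33 stood far above the rest, and libraries 45 and 46 lay just above the other empty plasmid libraries. The log2 fold change was -0.20 (SE 0.108; edgeR adjusted p = 0.946). With single libraries left out it ran from -0.26 to -0.10, the latter without library 33.

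Mrps16, with a bacterial counterpart, had 14.39, 14.21, 14.92 and 13.14 CPM with the Yy1 plasmid and 16.68, 15.02, 14.85 and 14.75 CPM with the empty plasmid. The groups overlapped through library 47, and the log2 fold change was -0.12 (SE 0.0708; edgeR adjusted p = 0.953). With single libraries left out it ran from -0.14 to -0.073, the latter without library 31. Mrps18a, Mrps18b and Mrps18c are paralogs, of which Mrps18c alone keeps the bacterial name in that scheme. It had 26.1, 20.6, 24.0 and 23.0 CPM with the Yy1 plasmid and 27.9, 22.0, 30.5 and 21.3 CPM with the empty plasmid. Its log2 fold change was -0.11 (SE 0.122; edgeR adjusted p = 0.993). With single libraries left out this ran from -0.19 to -0.024, the latter without library 33. Mrps18b had a log2 fold change of 0.059 (SE 0.0469).

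Mrps12 belongs to the decoding centre of the small subunit. It had 33.7, 30.4, 34.7 and 29.4 CPM with the Yy1 plasmid and 32.3, 31.2, 26.9 and 30.2 CPM with the empty plasmid, and the groups overlapped (log2 fold change 0.084, SE 0.0642, edgeR adjusted p = 0.980). Mrps36, the dehydrogenase component, had a log2 fold change of 0.020 (SE 0.0518).

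Genes with a YY1 match had fold changes on both sides of 0, as did those without. The 23 genes with AANATGG had a median log2 fold change of 0.0031 (range -0.096 to 0.092), against 0.00086 (range -0.12 to 0.16) for the 46 genes without it. The 11 genes whose stretches are printed had a median of -0.019, with values from -0.096 for Mrpl35 to 0.073 for Mrpl58, and 4 were positive. Mrpl35 and Mrps27 are named here after their values were seen. Mrpl35, a counterpart of a bacterial large-subunit protein, had 25.4, 25.6, 24.4 and 24.5 CPM with the Yy1 plasmid and 25.2, 27.2, 27.3 and 27.2 CPM with the empty plasmid. All but library 31 of the empty plasmid lay above the Yy1 plasmid libraries (edgeR adjusted p = 0.946). Mrps27, whose start codon lies in the letters AAGATGG, averaged 47.0 ± 2.09 CPM with the Yy1 plasmid and 46.9 ± 2.01 CPM with the empty plasmid (SD, n = 4 each; log2 fold change 0.0031, SE 0.0484). Genes with the ETS core had a median of 0.025 and those without it -0.0067, and genes with and without the NRF1 motif had 0.0063 and -0.0046.

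Levels of the 78 genes differed widely from gene to gene. They were compared as CPM per kilobase of the gene's median protein-coding transcript in GENCODE. With this unit the median gene stood at 35.3 with the Yy1 plasmid and at 34.8 with the empty plasmid, and 51 of the 78 lay within 2-fold of the median of the empty plasmid. Mrpl17, with a bacterial counterpart, led with 130 ± 4.41 CPM per kilobase with the Yy1 plasmid and 133 ± 4.61 with the empty plasmid (SD, n = 4 each), which is within the spread of its libraries. Mrpl42, a mitochondrial addition, followed with 123 ± 3.60 with the Yy1 plasmid and 124 ± 4.01 with the empty plasmid, and Mrpl20 with 119 ± 3.50 with the Yy1 plasmid and 120 ± 14.0 with the empty plasmid. Mrpl17 and Mrpl42 lay apart by more than either SD in both groups. Mrpl42 and Mrpl20 did so with the Yy1 plasmid only, while with the empty plasmid they lay within the SD of Mrpl20.

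At the other end, Mrpl57, without a bacterial counterpart, had 6.64 ± 0.500 CPM per kilobase with the Yy1 plasmid and 6.37 ± 0.630 with the empty plasmid, Mrps16 had 5.51 ± 0.291 with the Yy1 plasmid and 5.96 ± 0.355 with the empty plasmid, and Mrps25 had 5.76 ± 0.401 with the Yy1 plasmid and 5.64 ± 0.407 with the empty plasmid (SD, n = 4 each). The highest gene stood 23.7-fold above the lowest with the empty plasmid. The rank order of the 78 genes was nearly the same in both groups (Spearman's rho 0.996 across genes, which share libraries, depth and lengths), and no gene moved by more than 9 ranks. The order depends on which transcript is taken as the gene's length. With the longest transcript Mrpl42 came first and Mrpl17 came to rank 58. The 3 lowest genes kept their ranks, but their median and longest lengths are the same, so this change could not move their values.

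**Figure D4:**
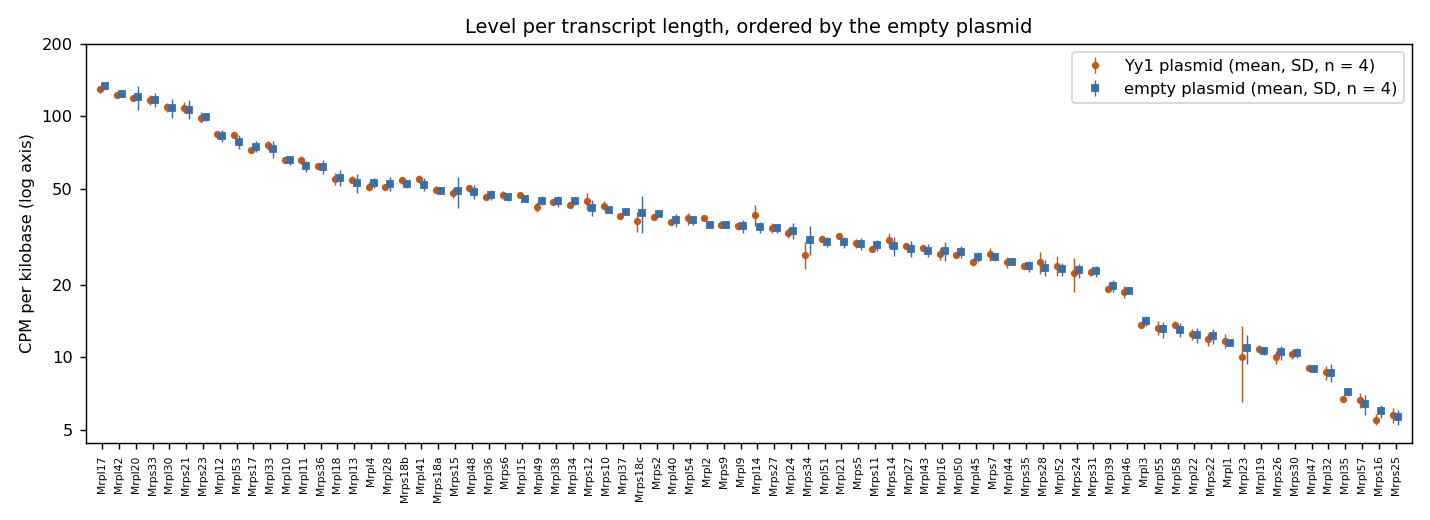
Mean level per gene in CPM per kilobase of the median protein-coding transcript (log axis), with SD (n = 4), for the Yy1 plasmid (circles) and the empty plasmid (squares), ordered by the empty plasmid. The levels span 23.7-fold from Mrpl17 to Mrps25, while the pairs of symbols lie on each other for most genes.

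Mrpl23, the gene with the widest interval, has a near-identical pseudogene, between which and the gene reads can be divided wrongly. Its protein lies at the exit of the peptide tunnel. Mrpl23 had 8.83, 4.14, 5.69 and 9.13 CPM in libraries 45 to 48 of the Yy1 plasmid, against 6.62, 7.42, 9.02 and 7.12 CPM in libraries 31 to 34 of the empty plasmid. The processed pseudogene Mrpl23-ps1, identical over 507 aligned bases, had 23.4, 24.4, 23.7 and 21.1 CPM with the Yy1 plasmid and 23.3, 21.9, 22.9 and 18.6 CPM with the empty plasmid. The groups overlapped in both rows, and the pseudogene's row held 75.8% of the estimated counts of the pair. In library 46, where Mrpl23 was lowest, the pseudogene was highest, and the share given to Mrpl23 was 14.5%, against 30.2% in library 48.

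The sum of both rows averaged 30.1 ± 1.60 CPM with the Yy1 plasmid and 29.2 ± 2.58 CPM with the empty plasmid (SD, n = 4 each). With the rows summed, which was chosen after seeing the data, the log2 fold change was 0.047 (SE 0.0628, 95% interval -0.083 to 0.18), where Mrpl23 alone had -0.11 (SE 0.261, 95% interval -0.72 to 0.51). With single libraries left out Mrpl23 alone ran from -0.27 to 0.070, the latter without library 46. The level of Mrpl23 itself is therefore uncertain. Near-identical pseudogenes (at least 95% identity over at least 200 bases) were found for 17 of the 78 genes, 21 copies in all. Of these copies 14 had no count in any library, and besides Mrpl23-ps1 only Gm13328, a copy of Mrps5, held over 1% of its pair's counts (1.28%).

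**Figure D5:**
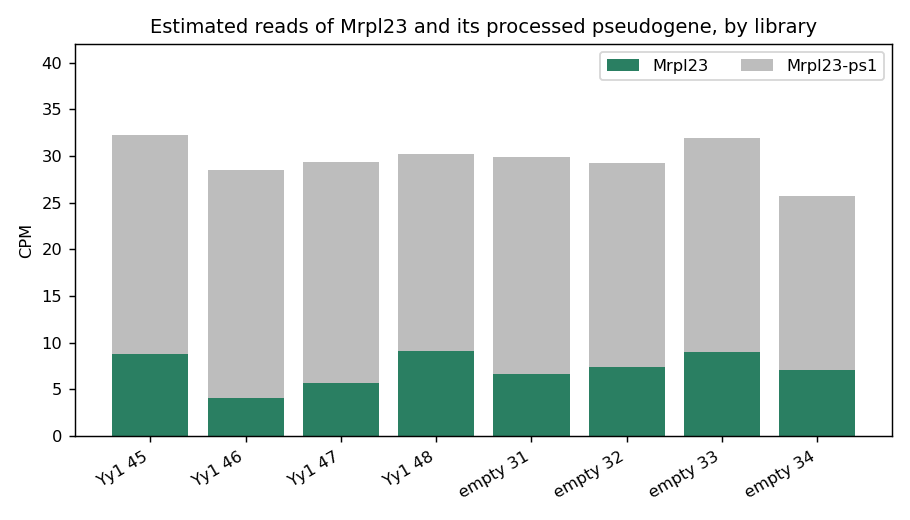
Stacked CPM of Mrpl23 (green) and its processed pseudogene Mrpl23-ps1 (grey) in each library. The pseudogene's part is the larger in every library, and the division varies more than the sum, from 14.5% given to Mrpl23 in library 46 to 30.2% in library 48.

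Some of these genes start head to head with another gene. A coding gene on the other strand began within 1000 bases upstream for 18 of the 78 (23.1%), against 10.6% of other tested protein-coding genes, a difference that was not tested. All 18 neighbours passed the filter, and edgeR called none, beside 0.515% of all tested genes. Of the 18, 1 had an unadjusted p under 0.05, beside 5.42% of all tested genes. Sars2, which encodes the mitochondrial seryl-tRNA synthetase and starts 172 bases from Mrps12, had the highest log2 fold change of the 18 and was the only one with an unadjusted p under 0.05. It stood at 16.8, 17.6, 16.5 and 15.3 CPM in libraries 45 to 48 of the Yy1 plasmid, against 13.1, 14.3, 14.4 and 14.1 CPM in libraries 31 to 34 of the empty plasmid. The libraries did not overlap, as in 3.95% of all tested genes. The log2 fold change of Sars2 was 0.24 (SE 0.0690; unadjusted p = 0.00177, edgeR adjusted p = 0.217), and its neighbour Mrps12 had 0.084. The other 17 neighbours had values from -0.072 to 0.20. The upper end was Lrrc46 (SE 0.262), at means of only 0.874 CPM with the Yy1 plasmid and 0.759 CPM with the empty plasmid. The next highest was Fau at 0.035, 59 bases from Mrpl49, and Eme2, 29 bases from Mrps34, had -0.070. Lrrc46, Fau and Eme2 are named here after their values were seen. Whether counting used strand is not stated, so reads from transcripts that overlap at such a start may be divided wrongly.

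In the other lists of mitochondrial translation and mitochondrial DNA edgeR made no call, beside 0.515% of all tested genes. Only 3 genes of these lists had an unadjusted p under 0.05, beside 5.42% of all tested genes. They were Sars2 among 20 tested genes for tRNA charging, Guf1 among 15 translation factors and mt-Nd6 among 13 mRNAs of mitochondrial DNA. The lists without such a gene held 5, 26, 2 and 6 tested genes. The difference from the share over all tested genes was not tested. Gadd45gip1, Dap3, Ptcd3, Chchd1 and Aurkaip1 encode structural proteins of the same ribosome under other names, and their log2 fold changes ran from -0.12 to 0.022. Gadd45gip1 averaged 25.4 ± 2.36 CPM with the Yy1 plasmid and 27.8 ± 3.37 CPM with the empty plasmid (SD, n = 4 each). Its log2 fold change was -0.12, or -0.051 without library 33 and -0.19 without library 45. Ptcd3 averaged 152 ± 3.25 CPM with the Yy1 plasmid and 157 ± 1.54 CPM with the empty plasmid (SD, n = 4 each). Of 26 genes for ribosome assembly and rRNA modification none was called, beside 0.515% of all tested genes. In this list 8 were positive and 18 negative, and the median was -0.034, beside -0.0025 over all tested genes. The difference was not tested. The smallest p values of the 26 were those of Ddx28, a helicase of large-subunit assembly (log2 fold change 0.13, SE 0.0717, edgeR adjusted p = 0.943), and Mterf4, a partner of the rRNA methyltransferase Nsun4 (-0.11, SE 0.0655, edgeR adjusted p = 0.947).

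Translation factors had log2 fold changes from -0.093 to 0.055 in 15 tested genes. Guf1, a GTPase related to elongation factors, stood at 56.5 ± 1.87 CPM with the Yy1 plasmid and 60.2 ± 2.26 CPM with the empty plasmid (SD, n = 4 each; log2 fold change -0.093, SE 0.0443, edgeR adjusted p = 0.909), and the elongation factor Gfm1 had 0.055 (SE 0.0393). Of 20 genes for tRNA charging, 11 were positive and 9 negative, from -0.21 for Lars2 (SE 0.206) to 0.24 for Sars2. Lars2, named after its values were seen, stood at 530 CPM in library 33, against 271 to 383 CPM in the other libraries of the empty plasmid. Besides Sars2, the smallest p was that of Qrsl1, a subunit of the enzyme that makes glutaminyl-tRNA (-0.094, SE 0.0561, edgeR adjusted p = 0.951).

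The rRNAs of this ribosome come from mitochondrial DNA, and these libraries were selected for poly(A). mt-Rnr2, the large rRNA, had 5270, 6515, 5871 and 7043 CPM in libraries 45 to 48 of the Yy1 plasmid, against 5032, 4439, 7119 and 5302 CPM in libraries 31 to 34 of the empty plasmid. The groups overlapped (log2 fold change 0.17, SE 0.169, edgeR adjusted p = 0.992), and library 33 was again the highest. The value was 0.33 without library 33, 0.10 without library 48 and 0.086 without library 32. mt-Rnr1, the small rRNA, had 0.093 (SE 0.0866), and between 0.044 and 0.17 when single libraries were left out. The 13 mRNAs of mitochondrial DNA, which this ribosome translates, summed to between 75809 and 80350 CPM with the Yy1 plasmid and between 74129 and 82930 CPM with the empty plasmid. Of them 5 were positive and 8 negative, from -0.32 for mt-Nd6 (SE 0.129; edgeR adjusted p = 0.906) to 0.24 for mt-Nd3 (SE 0.321), which was named after its values were seen and stood at 140 CPM in library 33, against 317 to 406 CPM in the other libraries of the empty plasmid. mt-Nd6 averaged 45.0 ± 4.06 CPM with the Yy1 plasmid and 56.3 ± 9.74 CPM with the empty plasmid (SD, n = 4 each). Its log2 fold change ran from -0.39 to -0.20 when single libraries were left out, the latter without library 33. mt-Nd6 lies on the other strand from the rest of these mRNAs, and whether counting used strand is not given in the sources used here. mt-Co1 had a log2 fold change of -0.064 (SE 0.0508). Tfam, which packages mitochondrial DNA and takes part in its transcription, had 0.036 (SE 0.0416). Mterf1b, of the termination factor family, had -0.23 (SE 0.203) at means of 1.80 CPM with the Yy1 plasmid and 2.10 CPM with the empty plasmid. The value of Mterf1b lay between -0.35 and -0.13 when single libraries were left out.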

How the data were processed

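The authors deposited 1 table of estimated counts, not scaled for depth, for 8 libraries. Fastp, kallisto and the build GRCm39 are listed, without versions, in the submitters' processing notes; how transcripts were summed to genes is not given in the sources used here. Per the labels' protocols, RNA was selected for poly(A) and libraries were made with a directional kit. No column was left unused.

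Symbols, gene types, transcript lengths and neighbours came from GENCODE M21 (an older build) and promoters from RefSeq. These expected counts, as deposited, were rounded, filtered with filterByExpr (at least 10 counts, total at least 15) and normalized by TMM, and all 15916 remaining genes were tested with edgeR 4.0.16 (glmQLFit, robust; glmQLFTest, two-sided) in R 4.3.3 with Benjamini-Hochberg adjustment at 0.05. SE is the log2 fold change over the square root of F. Intervals cover 95%. A count of 0 allows 3 counts, or 0.147 CPM in library 33. Copies were sought with BLAST 2.17.0. Alternatives were other scalings, filters, DESeq2 1.42.0, limma-voom 3.58.1 and each library left out. The edgeR step was checked on simulated data. Replicate pairs differed by more than sampling noise (chi-square per degree of freedom 2.87 to 13.0). The largest values were those of library 33 with libraries 32 (13.0), 34 (10.5) and 31 (8.50), and the other pairs reached at most 6.57.

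The genes and lists were chosen with earlier results of these data known. Genes named were the 6 smallest p values, the 4 highest and 4 lowest fold changes, the 3 highest and 3 lowest per length, 10 fixed members, Yy1 and the 2 smallest p values of each other list; markers were given as lists.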

Additional observations from a re-analysis of the deposited data

Results flagged for a closer look

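In 5 of 102 groups of 4 libraries, covering named genes, markers and summed levels, a single library lay far from the other 3 (Dixon's test at 95%), where chance gives about 1 in 20. Mrps34 had 34.0 CPM in empty plasmid library 33, against 26.2 to 26.4 CPM in the other libraries of that group. Mrps16 had 16.7 CPM in empty plasmid library 31, against 14.75 to 15.02 CPM in the others. Mrpl36 had 31.7 CPM in Yy1 plasmid library 46, against 33.5 to 33.8 CPM in the others. The beta cell factor Mafa had 0.0974 CPM in empty plasmid library 31, against 0.322 to 0.343 CPM in the others. The pancreatic elastase gene Cela1 had 6.97 CPM in Yy1 plasmid library 46, against 6.461 to 6.502 CPM in the others.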

How the results depend on the processing

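No mitoribosomal protein gene was called under any of the 17 alternatives, and the lowest adjusted p of a named one was 0.219 (Mrps34, no filter). The median log2 fold change of the 78 genes ran from -0.012 to 0.024 when single libraries were left out, and that of the summed level from -0.012 to 0.017. Intervals within 1.2-fold were found for 70 to 75 genes. Genes without overlap were 1 (1.28%) with RLE, upper-quartile or no scaling, the 1 CPM filter or coding genes only, where 3.27% to 4.002% of all tested genes did not overlap. They were 2 to 6 (2.56% to 7.69%) without single libraries (4 without 46, 47 or 32, 5 without 33, 6 without 31 or 34), where all tested genes gave 6.28% to 7.65%. Over all genes edgeR called 54 with the 1 CPM filter, 174 with no filter, 10 among coding genes only and 65 to 87 without single libraries; DESeq2 called 85 and limma-voom 73. Within 50 bases of the start, the NRF1 motif lay in 9.33% of windows, against 5.52% of windows of other tested coding genes, and AANATGG in 24.0% against 6.78%. Of 409 values of named members, 1 changed sign by more than its SE, Mrpl20, at 0.072 without library 33. The causes of these differences were not tested. At this depth and with 4 libraries a group, the 95% interval of the log2 fold change reached a median of 0.108 to either side. No paired analysis was possible because the groups share no sample number.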
